A study of Rattus norvegicus with 6 samples.

Results

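Transcripts for the synthesis, storage, uptake and breakdown of catecholamines were compared between brainstem cells grown in culture from 2 rat strains, the spontaneously hypertensive rat (SHR) and the Wistar Kyoto rat (WKY). SHR animals develop high blood pressure by inheritance, and WKY is the normotensive strain used as their control. The 9 genes are Th, Gch1, Ddc, Dbh, Pnmt, Slc18a2, Slc6a2, Maoa and Maob, taken with every probe whose only gene symbol in the platform annotation is one of these names. This gave 10 probes, with 2 for Slc6a2 and 1 for each other gene, among 33849 probes in all and 12198 genes named by single symbols. Each strain had 3 single-colour CodeLink arrays, and each array was hybridised with RNA of cells pooled from 3 dishes. Both strains were untreated as far as the labels say, and the sources used here do not give the age and sex of the animals, the days in culture or the litters. The submitters describe the 3 arrays per strain as independent biological replicates, but nothing says that the pools came from separate litters or culture days. The p-values therefore measure the spread between these pools, which may in part be technical. Values are the submitters' quantile normalized intensities in array units, and differences are in log2 intensity, SHR minus WKY.

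Catecholamine neurons convert tyrosine to L-DOPA with tyrosine hydroxylase, L-DOPA to dopamine with aromatic L-amino acid decarboxylase, dopamine to noradrenaline with dopamine beta-hydroxylase and, in adrenergic cells, noradrenaline to adrenaline with phenylethanolamine N-methyltransferase. A vesicular transporter loads the amines into synaptic vesicles, a plasma membrane transporter takes released noradrenaline back up, and monoamine oxidases on the outer mitochondrial membrane degrade them. The brainstem holds the noradrenergic and adrenergic cell groups that act on sympathetic outflow, while a mixed culture also contains glia, in which monoamine oxidase is known to be present.

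None of the 10 probes differed between the strains by limma with Benjamini-Hochberg adjustment over all probes, where adjusted p under 0.05 was the threshold. The adjusted p of the 10 probes lay between 0.661 and 0.988. In that comparison 0% of the 33249 probes tested passed, and the smallest adjusted p of all was 0.0528. At an unadjusted p under 0.05, 0 of the 10 probes passed, beside 7.65% of all probes. Of the 10 differences 6 were above 0 and 4 below, with a median of 0.02, and the median over all probes was -0.01. The 95% interval of the difference lay within 2-fold either way at 7 probes and within 1.5-fold at 6, so that for these probes larger strain differences fall outside the interval. The exceptions to 2-fold were Ddc, Pnmt and Gch1, whose signals varied most between the pools. The 7 probes include the dimmer Slc6a2 probe, whose signal lay near the low end of the scale, so its interval speaks of signal only. Its SE was 0.15 here and 0.34 when limma used an intensity trend and a robust prior. The unadjusted p in limma was 0.0653 and 0.343.

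**Figure D1:**
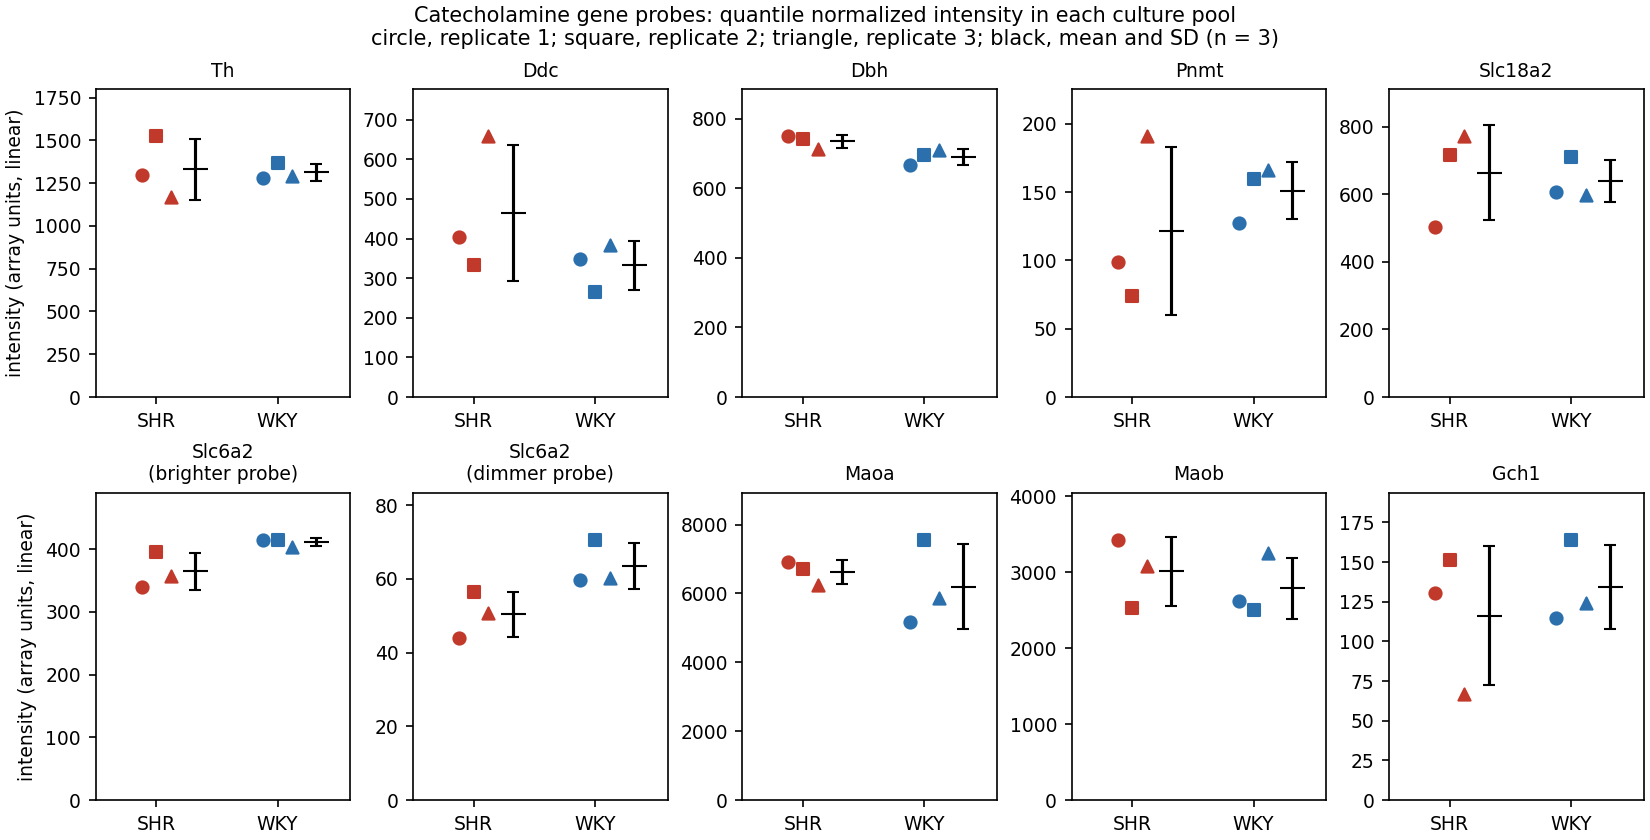
Quantile normalized intensity (vertical axes, linear array units from 0, a separate scale per probe) of the 10 probes in 3 SHR and 3 WKY culture pools, with the mean and SD of each strain in black. Th lies near 1300 in both strains, the strains do not overlap for Dbh and for both Slc6a2 probes, and the SHR replicate 3 pool stands highest for Ddc and Pnmt and lowest for Gch1.

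Th, the gene of tyrosine hydroxylase, which catalyses the rate-limiting step, gave 1296, 1524 and 1171 intensity units in SHR pools 1, 2 and 3 and 1278, 1367 and 1294 in WKY pools 1, 2 and 3. The highest and the lowest of the 6 values were both SHR pools, and all WKY pools lay between them. The log2 signal was 10.37 ± 0.19 (SD, n = 3) in SHR and 10.36 ± 0.05 in WKY. The difference was 0.01 ± 0.14 (SE), with a 95% interval from -0.33 to 0.36 and an adjusted p of 0.988 in limma. The whole span of the 6 pools was 1.30-fold.

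The promoter of Th is shown with those of Slc18a2 and Dbh, because a cyclic AMP response element (CRE) close to the start is a known feature of Th and the same letters were looked for in the other genes. Sequences are RefSeq's for assembly GRCr8, a Brown Norway genome and neither of the strains studied, and run from 250 bases before to 50 bases after the annotated start on the gene's strand. Th lies at chr1:207508169-207508468 on the minus strand, Slc18a2 at chr1:268399771-268400070 on the plus strand and Dbh at chr3:30886078-30886377 on the plus strand. Capitals mark TGACGTCA, the full CRE, in Th and Slc18a2, and its shorter core TGACG, on the strand opposite to the gene, in Dbh.
Th: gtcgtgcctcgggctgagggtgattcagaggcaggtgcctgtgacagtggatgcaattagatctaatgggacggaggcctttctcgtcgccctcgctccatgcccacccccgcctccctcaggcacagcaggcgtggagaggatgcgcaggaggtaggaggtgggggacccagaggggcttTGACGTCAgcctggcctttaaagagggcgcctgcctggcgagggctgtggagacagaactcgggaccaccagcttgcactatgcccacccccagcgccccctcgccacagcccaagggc
Slc18a2: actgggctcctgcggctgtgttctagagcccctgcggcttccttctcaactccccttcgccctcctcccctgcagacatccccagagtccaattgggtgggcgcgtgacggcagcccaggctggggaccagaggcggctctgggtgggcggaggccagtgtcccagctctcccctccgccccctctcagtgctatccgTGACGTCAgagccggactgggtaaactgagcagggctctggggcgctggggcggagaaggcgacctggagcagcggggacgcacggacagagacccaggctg
Dbh: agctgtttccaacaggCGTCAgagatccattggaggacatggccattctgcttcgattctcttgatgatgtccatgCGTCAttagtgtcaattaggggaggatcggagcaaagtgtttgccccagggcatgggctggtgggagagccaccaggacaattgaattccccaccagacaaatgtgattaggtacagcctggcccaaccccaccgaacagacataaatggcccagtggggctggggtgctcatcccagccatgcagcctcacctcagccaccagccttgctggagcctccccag
Of 7 genes with a window in the table (all but Pnmt and Slc6a2), Th and Slc18a2 held TGACGTCA, starting 69 and 52 bases before the start. Of all 33469 windows of the same length, 1.83% held it. The core TGACG, which the full element contains, was found on either strand in Th, Slc18a2, Dbh, Gch1 and Maoa and in 21.2% of all windows. The letters GGGCGG, the core of an Sp1 site, were found in Slc18a2, Gch1, Maoa and Maob and in 33.1% of windows. TGANTCA, an AP-1 site, was found in Th and in 1 of the 3 windows of Ddc, against 7.33%, and TATAAA in 1 window of Ddc, against 14.2%. Both strands were searched, and a match describes letters in this window only. Th and Slc18a2, which share the full element, both had differences near 0 between the strains. Of the genes with a window but without it, Dbh, Maoa and Maob were near 0 too, at 0.09, 0.11 and 0.11. Ddc at 0.44 and Gch1 at -0.27 lay further off. A link of the element to the strain differences was not tested.

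Gch1 encodes GTP cyclohydrolase I, which catalyses the first step in making the tetrahydrobiopterin that tyrosine hydroxylase needs as cofactor. It gave 131, 151 and 67.1 units in SHR and 115, 164 and 124 in WKY. SHR pool 3 was the lowest of the 6, and the other SHR pools lay inside the WKY range. The difference was -0.27 ± 0.33 (95% interval -1.07 to 0.52, adjusted p = 0.842 in limma), and it became 0.08 without SHR pool 3. The order of the pools, from high to low, was the same for Th and Gch1 except that SHR 2 and WKY 2 changed places at the top. Of the 45 pairs among the 10 probes, this was the pair that ordered the pools most alike, with 1 of 15 pool-to-pool comparisons discordant against a median of 8. It was picked from those 45 after the values were seen, and 6 pools give few orders.

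Ddc, which encodes the decarboxylase shared by catecholamine and serotonin neurons, gave 403, 332 and 658 units in SHR and 349, 264 and 384 in WKY. SHR pool 3 was the highest, SHR pool 2 lay within the WKY range, and the strains overlapped. The fitted difference of 0.44 ± 0.29, a 1.36-fold higher signal in SHR, had a 95% interval from -0.25 to 1.13 and an adjusted p of 0.726 in limma. Leaving out SHR pool 3 reduced it to 0.16, and leaving out WKY pool 2 to 0.28. Without SHR pool 2 it rose to 0.65, and without WKY pool 3 to 0.55.

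Dbh, the gene of the enzyme that makes noradrenaline inside vesicles, was the steadiest of the 10 probes, with a span of 1.13-fold over the 6 pools. Its signal was 749, 742 and 714 units in SHR and 666, 695 and 711 in WKY. All SHR pools lay above all WKY pools, but the lowest SHR and the highest WKY pool were only slightly apart. The log2 signal was 9.52 ± 0.04 (SD, n = 3) in SHR and 9.43 ± 0.05 in WKY. The difference was 0.09 ± 0.11 (SE), 1.06-fold, with a 95% interval from -0.19 to 0.37 and an adjusted p of 0.850 in limma. The moderated error is wider than the spread of this probe's own pools because limma borrows the spread of the other probes.

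Pnmt, whose enzyme makes adrenaline and marks adrenergic cells, was dim, with 98.6, 74.3 and 191 units in SHR and 127, 160 and 166 in WKY. SHR held both the highest and the lowest values, so the WKY pools lay inside the SHR range. The difference was -0.42 ± 0.35 (95% interval -1.27 to 0.42, adjusted p = 0.774 in limma). It was -0.81 without SHR pool 3, with an unadjusted p of 0.0104 and an adjusted p of 0.738, and -0.13 without SHR pool 2. Pnmt had the widest span of the 9 genes at their brightest probe, 2.57-fold over the 6 pools. Among 11708 other named genes measured in all pools, Mroh3, Spag11a and Rin1 had log2 values, centred on their own mean, closest to those of Pnmt, with root mean square differences of 0.13, 0.14 and 0.16 over 6 pools. Their probes were dim like that of Pnmt, at percentiles 15.2, 5.98 and 22.8 of brightness. With 6 points and this many genes, close matches are a description only.

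Slc18a2 encodes the vesicular monoamine transporter VMAT2, which fills synaptic vesicles. Its signal was 504, 718 and 771 units in SHR and 608, 710 and 599 in WKY. SHR pool 1 lay below and SHR pools 2 and 3 above all WKY pools, so the SHR values stood on both sides of WKY. The difference was 0.04 ± 0.20 (95% interval -0.44 to 0.51, adjusted p = 0.970 in limma), and its sign changed when SHR pool 2, SHR pool 3 or WKY pool 3 was left out and with array weights. Without SHR pool 1 it was 0.22, and the remaining SHR pools then lay above all WKY pools. Fewer pools make such a separation easier, and its share over all probes was not taken.

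Slc6a2, the gene of the noradrenaline transporter that ends transmission by reuptake, was the only one of the 9 with a second probe, and both probes stood lower in all SHR pools than in all WKY pools. The brighter probe gave 339, 396 and 358 units in SHR and 415, 415 and 404 in WKY. The dimmer probe gave 44.1, 56.3 and 50.7 units in SHR and 59.7, 70.7 and 60.1 in WKY. On both probes the SHR pools ranked in the same order, 2 over 3 over 1. The differences were small: -0.18 ± 0.12 at the brighter probe (1.13-fold lower in SHR, 95% interval -0.48 to 0.12) and -0.34 ± 0.15 at the dimmer one (1.26-fold lower, interval -0.70 to 0.03). Neither passed in limma, with unadjusted p of 0.195 and 0.0653 and adjusted p of 0.739 and 0.661. Both probes read the same labelled RNA and carry the same reference transcript in the annotation, so they are repeat readings of the same 6 pools and not further replicates. The per-sample intensities were also taken without further normalization between arrays. In them the brighter probe overlapped between the strains, at 325, 451 and 375 units in SHR and 425, 400 and 358 in WKY. Its difference was -0.05. There the dimmer probe still did not overlap, at 40.8, 52.7 and 50.6 against 59.4, 69.4 and 63.5. The dimmer probe lay at percentile 2.19 of brightness among the tested probes, close to the low end of the scale.

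Together with Dbh, 3 of the 10 probes thus had strains that did not overlap, 1 higher and 2 lower in SHR. Among all 31327 probes measured in 6 pools, 13.4% did not overlap, 6.07% with SHR higher and 7.30% with SHR lower, and none of the 3 passed the test. Dbh and the brighter Slc6a2 probe ordered the pools almost oppositely, with 14 of 15 pool-to-pool comparisons discordant. Their strains are apart in opposite directions, which by itself makes every comparison of an SHR with a WKY pool discordant. The pair was also the most discordant of the 45, so this order is no further result. In pooled cells, fewer cells of a type and less RNA per cell cannot be told apart. Summed over 5 neuronal marker genes with a probe (Snap25, Stmn2, Nefl, Nefm and Eno2), the intensity was 16105 to 23825 in SHR and 17659 to 20865 in WKY, so this sum overlapped between the strains. Of these genes 3 were above 0 and 2 below, and the brightest went opposite ways, with Stmn2 at 0.26 and Eno2 at -0.53. For 7 fibroblast and meningeal markers the sum was 41533 to 59609 in SHR and 30281 to 38586 in WKY, without overlap. Of these 7 genes 6 were above 0. The lack of overlap of this sum depended on its brightest gene, Ptgds. Ptgds itself overlapped, at 18555, 10965 and 28748 units in SHR and 5012, 15501 and 12620 in WKY. Aldh1a2 and Slc6a13 were each higher in SHR without overlap. For 7 oligodendrocyte markers the sum was 54592 to 101990 in SHR and 91529 to 108166 in WKY, with SHR pool 2 inside the WKY range. All 7 genes were below 0 there, with a median difference of -0.87, against -0.01 over all probes. The sums of the other cell lists overlapped between the strains. They were 144584 to 158321 in SHR and 147909 to 153484 in WKY for astrocytes. For microglia and macrophages they were 111120 to 115444 and 112805 to 121728, and for endothelial cells and pericytes 7432 to 8193 and 7229 to 7914. Some markers had strain differences close to 0, such as Nefl at 0.03 and Col1a1 at -0.02 at its brightest probe. The part of these other cells in the values of Dbh and Slc6a2 was not tested.

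Maoa and Maob encode the monoamine oxidases that degrade noradrenaline, dopamine and serotonin. MAO-A prefers serotonin and noradrenaline, and MAO-B is known from astrocytes and serotonin neurons. The genes are neighbours on the rat X chromosome, with 0 annotated genes between them in GRCr8. Maoa gave 6923, 6720 and 6237 units in SHR and 5161, 7567 and 5861 in WKY. The SHR pools lay close together between the extremes of the WKY pools. Its difference was 0.11 ± 0.17 (95% interval -0.30 to 0.53, adjusted p = 0.875 in limma), and -0.01 without WKY pool 1. Maob gave 3432, 2526 and 3082 units in SHR and 2617, 2497 and 3252 in WKY, with overlap. Its difference was 0.11 ± 0.18 (interval -0.32 to 0.54, adjusted p = 0.882 in limma), and it was 0.01 without SHR pool 1 and 0.23 without SHR pool 2. Although the fitted differences of the oxidases were nearly equal, they ordered the pools differently: WKY pool 2 was the highest for Maoa and the lowest for Maob.

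**Figure D2:**
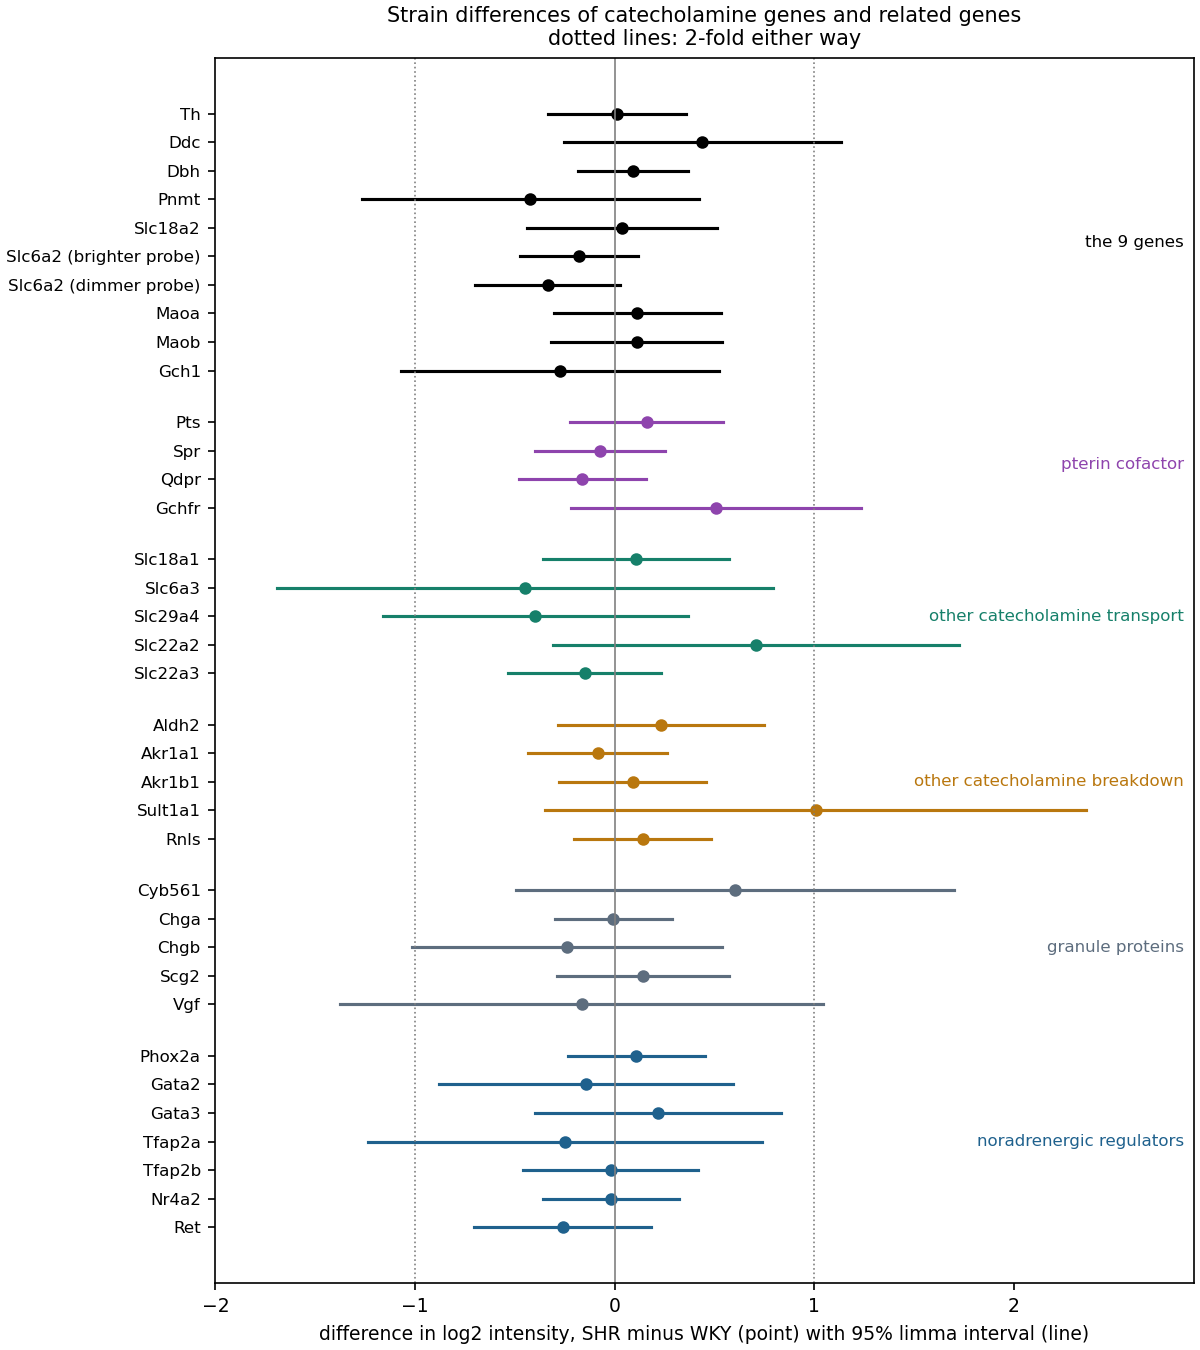
Difference in log2 intensity, SHR minus WKY (horizontal axis), as points with 95% limma intervals as lines, for the 10 probes of the 9 genes (black) and the brightest probe of 26 related genes (coloured by list), with dotted lines at 2-fold. Every interval shown includes 0, and the widest belong to Sult1a1, Slc6a3 and Vgf.

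The rest of the pathway showed the same lack of calls. Of 34 related genes in the lists used here, 26 had a probe with their single symbol, and at the brightest probe of each 12 differences were above 0 and 14 below. At adjusted p under 0.05, 0 passed in limma, and 0 had an unadjusted p under 0.05, again beside 7.65% of all probes. Genes of the pterin cofactor had a median difference of 0.04 over 4 genes, 2 above and 2 below 0. Gchfr, whose protein gives feedback control of GTP cyclohydrolase I, stood at 0.51 ± 0.30, and Qdpr, which regenerates the cofactor, at -0.16 ± 0.13. Gchfr gave 552, 414 and 628 units in SHR and 563, 288 and 308 in WKY. Pools SHR 1, SHR 3 and WKY 1 were the highest, so its division did not follow the strains. Other transporters of catecholamines had a median of -0.15 over 5 genes, 2 above and 3 below. The organic cation transporter Slc22a2 differed by 0.71 ± 0.40, with 99.3, 218 and 169 units in SHR and 73.2 and 122 in WKY pools 1 and 3. Its WKY 2 entry was not above 0 and was left out, and its probe was dim, at percentile 22.3 of brightness. The low-affinity monoamine transporter Slc29a4 differed by -0.40 ± 0.32.

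Other genes of catecholamine breakdown had a median of 0.14 over 5 genes, 4 above and 1 below 0. Sult1a1, a sulfotransferase of phenols and amines, had the widest difference, 1.01 ± 0.56 (95% interval -0.35 to 2.36, adjusted p = 0.694 in limma). Its values were 1763, 942 and 2682 units in SHR and 1687, 680 and 478 in WKY. Pools SHR 1, SHR 3 and WKY 1 were high and the other pools low, so the division did not follow the strains. Cyb561, the cytochrome that passes electrons into secretory vesicles for dopamine beta-hydroxylase, was high in the same pools, with 2110, 916 and 2786 units in SHR and 1670, 866 and 1064 in WKY, and its difference was 0.60 ± 0.45. Aldh2, a mitochondrial aldehyde dehydrogenase that acts after the oxidases, was also highest in those pools and differed by 0.23 ± 0.21. The division was not particular to the pathway. The endothelial marker Vwf gave 1879, 861 and 2165 units in SHR and 1642, 1130 and 1295 in WKY. Prm2, from the list of genes of other organs, was highest in the same pools. In the granule protein list 2 of 5 genes were above 0 and 3 below, with a median of -0.01, and Scg2, a granin, stood at 0.14 ± 0.18.

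The list of regulators of the noradrenergic cell fate had 7 of 12 genes with a probe, 2 above and 5 below 0, with a median of -0.02. Phox2a, a homeodomain factor that activates Dbh and defines noradrenergic neurons, gave 2493, 2011 and 1977 units in SHR and 1909, 2035 and 2036 in WKY, a difference of 0.11 ± 0.14. Ret, the receptor for glial cell line-derived neurotrophic factors, stood at -0.26 ± 0.18 at its brightest probe. Its other probes gave -0.56 ± 0.23, with an unadjusted p of 0.0465 and an adjusted p of 0.646 in limma, and -0.47 ± 0.20. Gata3, a transcription factor of sympathetic and brainstem neurons, stood at 0.22 ± 0.26. Among markers of serotonin neurons, which share Ddc and Slc18a2 with catecholamine cells, 2 of 7 genes were above 0 and 5 below. The autoreceptor gene Htr1a gave 114, 102 and 95.7 units in SHR and 183, 136 and 179 in WKY without overlap. Its difference was -0.67 ± 0.17, with an unadjusted p of 0.00627 and an adjusted p of 0.519 in limma. The Htr1a probe was dim, at percentile 23.0 of brightness, close to Pnmt at 22.8 and Gch1 at 21.3. The synthesis gene Tph2 differed by 0.10 ± 0.17.

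**Figure D3:**
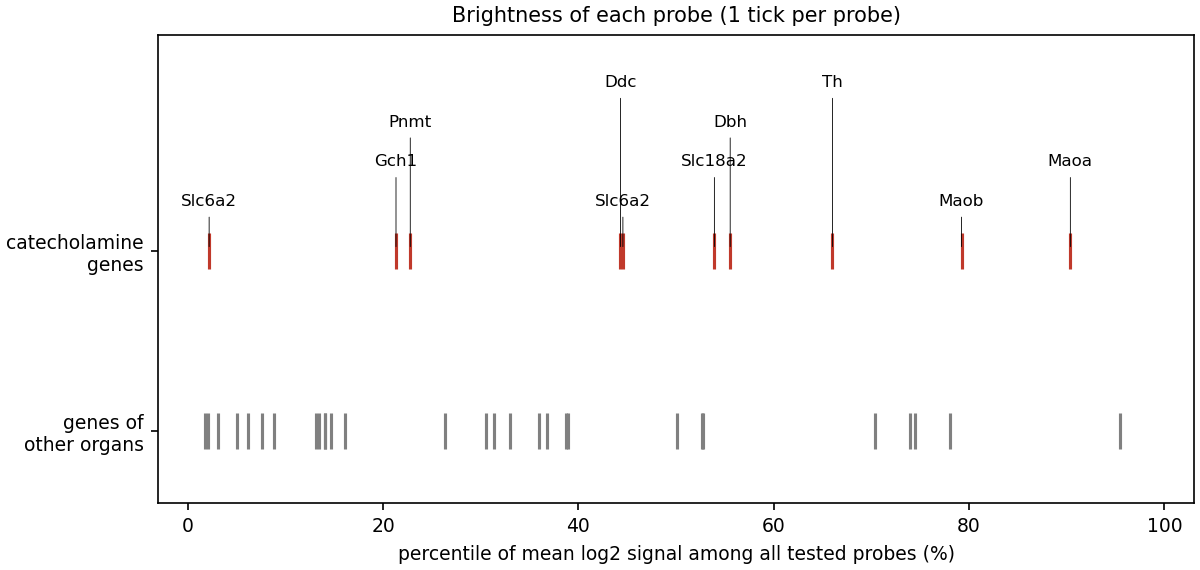
Percentile of the mean log2 signal among all tested probes (horizontal axis), with 1 tick for each of the 10 catecholamine probes (upper row, named) and of 29 probes for genes typical of other organs (lower row). Maoa and Maob lie at 90.4 and 79.2, and all 10 fall within the range that probes for genes of other organs also cover.

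The brightness of a probe depends on its own binding as well as on the transcript, so levels were not ranked between genes and were set only beside the signals of probes for genes known from other organs. A list of genes typical of organs such as pancreas, testis, liver or kidney served for this, with 24 genes and 29 probes, which lay between percentiles 1.72 and 95.5 of brightness with a median of 30.6. Whether the cultures lack these transcripts was not tested. Pnlip, the brightest of the 29 and a pancreatic lipase gene, ranged from 3536 to 31499 units over the pools. Of the 29 probes, Pnlip alone was brighter than Maoa or Maob. For Th at percentile 66.0, Dbh at 55.5 and Slc18a2 at 53.9, 5 of 29 were brighter, and for Ddc at percentile 44.3 and the brighter Slc6a2 probe at 44.6, 8 were. For Pnmt at percentile 22.8 and Gch1 at 21.3, 16 were brighter, and for the dimmer Slc6a2 probe 27. The signals of Pnmt, Gch1 and the dimmer Slc6a2 probe fell in the dimmest 25% of probes. Presence of these transcripts cannot be read from signals of that size, and for the mid-range probes signal alone does not separate a low transcript from binding of other RNA. For the labelled tissue, astrocyte markers such as Gfap and Slc1a3, microglial markers such as Aif1 and neuronal Stmn2 were bright in every pool. Not all markers were: the astrocyte gene Slc1a2 lay at percentiles 21.8 and 8.26 at its 2 probes, the neuronal genes Nefl and Nefm at 55.0 and 45.5, and Snap25 at 1.27.

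**Figure D4:**
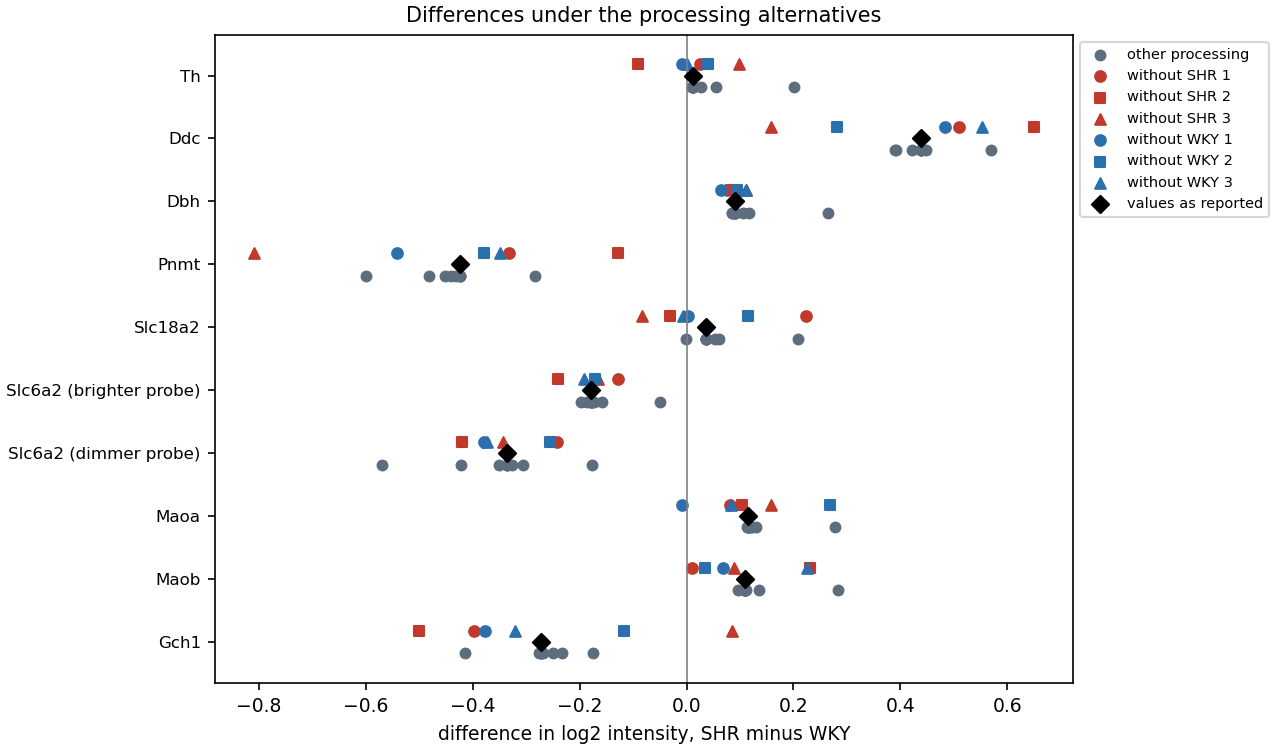
Difference in log2 intensity, SHR minus WKY (horizontal axis), of each of the 10 probes as reported (black diamonds), under other processing (grey) and with each pool left out (red, SHR; blue, WKY; shape gives the replicate). Ddc, Dbh, Pnmt, Maob and both Slc6a2 probes keep their side of 0 throughout, and Pnmt, Gch1 and Ddc move most when SHR replicate 3 is left out.

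Across 16 alternatives of processing and of the pools used, the 10 probes gave 157 values, of which 149 had the direction reported here and 8 the opposite one. None of the 157 passed an adjusted p of 0.05 in limma. Both Slc6a2 probes were below 0 in every alternative in which they were tested, between -0.24 and -0.05 for the brighter and between -0.57 and -0.18 for the dimmer probe. Dbh stayed between 0.06 and 0.26, and Ddc between 0.16 and 0.65. SHR pool 3 was the highest or the lowest of the 6 pools at 5 of the 10 probes, as were SHR pool 1 and WKY pool 2, while WKY pool 3 was at neither end for any of them.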

How the data were processed

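Per the labels, CodeLink software gave spot intensities after background subtraction, which the authors filtered against negative controls and quantile normalized. The software versions and genome build were not stated in those labels. The deposited series table holds these normalized intensities on a linear scale, and all 6 columns share the same sorted values. The per-sample tables, deposited as normalized by their titles, hold intensities whose medians differ (439 to 571 over the probes of the series table). A code of -9999 stands for 178 to 238 spots per array there, and 615 entries per column of the series table are not above 0.

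Values above 0 were taken to log2 without an offset. A probe needed 3 such values in either strain and 2 or more in the opposite strain, and was tested with limma 3.58.1 (R 4.3.3; lmFit, eBayes, two-sided, Benjamini-Hochberg over 33249 probes), and intervals are 95% limma intervals. The steps were tested on simulated data. Correlations across probes were 0.969 to 0.980 within and 0.964 to 0.977 between strains. The number of arrays limits the precision.

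The members and lists were chosen with earlier results of these data known. Named were all probes of the 9 genes, up to 2 genes of each related list by smallest p at the brightest probe, and the 3 genes most like the member with the widest span. The other probes of Ret, and Phox2a, Htr1a, Tph2, Pnlip, Prm2 and the cell markers, were named outside that rule. Of 16753 probes with 1 symbol, 16724 Entrez identifiers matched the GRCr8 gene table, while 165 probes had several symbols and 16931 none. Figures were drawn with matplotlib 3.10.9.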

Additional observations from a re-analysis of the deposited data

How the results depend on the processing

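The count of probes past adjusted p 0.05 in limma was 0 as reported, with every alternative normalization, under a replicate block (the pool number as a term) and without each pool in turn (0 to 0). It was 28 when limma used a robust prior and an intensity trend, 18 after the dimmest 25% of probes were removed, 5 with probes valid in all pools, 5 with array weights and 1 with an offset of 50 before log2, and none of these was a probe of the 9 genes. At an unadjusted p under 0.05, 1 of the 10 probes passed with median-centred per-sample intensities (the dimmer Slc6a2 probe). Between 0 and 1 passed without single pools, namely the dimmer Slc6a2 probe without SHR 2 and Pnmt without SHR 3. Of the related genes 0 to 2 passed without single pools. Over all probes without SHR 2, 1761 were higher and 1735 lower of 32697 tested, at an unadjusted p under 0.05 in limma. Those counts were 807 and 977 of 32702 without SHR 3, and 1766 and 1758 of 32665 without WKY 1. The direction of Slc18a2 turned with array weights (-0.0007). Without single pools the differences ranged from 0.010 to 0.23 for Maob, -0.091 to 0.099 for Th, -0.083 to 0.22 for Slc18a2, -0.0086 to 0.27 for Maoa and -0.50 to 0.084 for Gch1. The causes were not tested. Between 2 and 4 of the probes tested had strains that did not overlap. The count of 2 came without the dimmest 25% of probes, where Pnmt, Gch1 and the dimmer Slc6a2 probe were not tested. The share over all probes was not taken in these settings, and strains separate more easily when a pool is left out. With the per-sample intensities taken without further normalization, the probes without overlap were Ddc, Dbh, Maob and the dimmer Slc6a2 probe. The median difference of all probes was 0.12 there. At an unadjusted p under 0.05 in limma, 1542 probes were higher and 846 lower there, against 1212 and 1333 as reported. With median centring the counts were 902 and 1791. Under the replicate block 0 of the 10 probes passed, and Ddc had an unadjusted p of 0.0612. After subtracting strain means, pools 1, 2 and 3 of SHR correlated with those of the same number in WKY at 0.0011, 0.22 and -0.13, so the numbers were not taken as pairs. A dim signal limits what can be said of Pnmt, Gch1 and the dimmer Slc6a2 probe.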
